A study of Mus musculus with 4 samples.

Results

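The colony-stimulating factors and their receptors were described in single cells of the synovium and the lung of mice with TNF-driven arthritis and of control littermates. The set held 9 of the 32285 genes counted in each library: the factors Csf1, Il34, Csf2 and Csf3 and the receptor genes Csf1r, Csf2ra, Csf2rb, Csf2rb2 and Csf3r. They were chosen by gene symbol, with earlier results of these data known. Each symbol named 1 row of the matrices. All 9 had UMIs (unique molecular identifiers, each standing for 1 captured RNA molecule) in all 4 libraries.

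TNF+ mice carried a human TNF transgene (TNF-Tg, a single inserted copy), and they develop erosive arthritis together with disease of the lung vessels. TNF- mice were their wildtype littermates, and all were female, 4 months old and on a C57BL/6 background. Lungs were pooled from 3 to 5 mice and synovium from 5 to 10 mice of a genotype before capture, digested with enzymes, freed of red blood cells and sorted for live cells, so that each of the 4 groups (TNF- synovium, TNF+ synovium, TNF- lung, TNF+ lung) was 1 library. No difference below therefore has a replicate check, no p-value is given, and every interval is a 95% interval that covers counting error only. The human transgene was not part of the mouse reference and was not measured.

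Colony-stimulating factors are secreted proteins that keep myeloid cells alive and direct their growth and maturation. CSF1 (M-CSF) and IL-34 share the receptor CSF1R of macrophages, monocytes and osteoclast precursors. CSF2 (GM-CSF) signals through a specific alpha chain, CSF2RA, together with a beta chain, CSF2RB, that the receptors of IL-3 and IL-5 also use. CSF3 (G-CSF) acts through CSF3R and sets the output of neutrophils. In mice a duplicated beta chain, Csf2rb2, lies beside Csf2rb and serves IL-3. In arthritis, these factors are known as links between stromal cells and the macrophages, neutrophils and osteoclasts of the joint.

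In the GENCODE vM21 annotation of GRCm38, Csf1 lies at chromosome 3:107741048-107760469, Il34 at 8:110741829-110805924, Csf2 at 11:54247271-54249667 and Csf3 at 11:98701263-98703629. Of the receptors, Csf1r lies at 18:61100598-61132149, Csf2ra at 19:61223957-61228429 and Csf3r at 4:126024550-126044440. The beta chains are neighbours, Csf2rb2 at 15:78282507-78305721 and Csf2rb at 15:78325752-78353847. Il34, Csf1r and Csf2 each overlap a gene on the opposite strand (Gm15894 and Gm15895, Hmgxb3 and Gm12223). The sources used here do not state whether counting used the strand, so reads of such pairs are uncertain.

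After filtering, the libraries held 3152 to 9174 cells and 33047125 to 84398714 UMIs, with 7137 to 12492 UMIs in the median cell. Between 5 and 21 cell barcodes were shared by any pair of libraries. Clusters were named from marker lists that held none of the 9 genes, which were also kept out of clustering, and a class name is to be read as a likeness to that class. Levels are CPM, the UMIs of a gene scaled to 1000000 UMIs of all genes in the same cells, and a difference is the log2 ratio of CPM in TNF+ over TNF-. Because 1 library stood for each genotype, a gene was called by size alone, at 2-fold or more with at least 20 UMIs over both libraries. Fewer cells of a class and less RNA per cell cannot be told apart in a whole-library level.

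Across whole synovium, 6 of the 9 genes were past 2-fold, 5 higher and 1 lower in TNF+, where 33.6% of all tested genes were past 2-fold (11.8% higher, 21.9% lower). Csf3 differed most. It had 16 UMIs in TNF- and 1418 in TNF+ synovium, 0.21 and 42.9 CPM (log2 ratio 7.68, interval 6.97 to 8.49). Csf2rb2 was at 3.52 and 40.9 CPM (3.54), Csf1r at 34.6 and 244 CPM (2.82), Csf2rb at 28.5 and 139 CPM (2.29) and Csf2ra at 33.2 and 102 CPM (1.62). Csf2 went the other way, with 1049 UMIs in TNF- and 74 in TNF+, 13.8 and 2.24 CPM (-2.62, interval -2.98 to -2.28). Csf1 (7624 and 1921 UMIs, -0.78), Il34 (14.2 and 17.2 CPM, 0.27) and Csf3r (7.86 and 10.9 CPM, 0.47) stayed within 2-fold. The median log2 ratio of all tested genes was -0.17 in whole synovium.

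Across whole lung, 5 of 9 genes were past 2-fold, 4 higher and 1 lower, against 31.3% of all tested genes (5.79% higher, 25.5% lower). Every called receptor gene was higher in the TNF+ library. Csf1r stood at 93.4 and 607 CPM (2.70), Csf2rb2 at 5.97 and 22.5 (1.92), Csf2ra at 35.8 and 129 (1.85) and Csf2rb at 31.9 and 108 (1.76). Csf1 was lower, at 28.5 and 8.40 CPM (-1.76, interval -1.89 to -1.63), and Il34 stood at the edge of the call, at 9.29 and 4.67 CPM (-0.99). Csf3r (99.6 and 84.4 CPM), Csf2 (1.34 and 1.52 CPM) and Csf3 (17 and 15 UMIs) were within 2-fold. The median log2 ratio of all tested genes was -0.32. Csf3r went from -0.24 to 0.02 when UMIs per cell were compared in place of CPM.

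The make-up of the libraries moved with these values. Myeloid cells were 10.0% of cells in TNF- and 38.6% in TNF+ synovium, and 15.1% and 53.4% in the lung, while mesenchyme went from 58.6% to 18.5% in the synovium and endothelium from 32.5% to 4.36% in the lung. When the TNF+ level of every class was weighted by the class shares of the TNF- library, the log2 ratio in synovium was 0.999 for Csf1r, 0.64 for Csf2rb and -0.13 for Csf2ra. In lung the log2 ratio was 0.69 for Csf2ra, 0.61 for Csf2rb, 0.79 for Csf2rb2 and 0.53 for Csf1, whose direction turned. Of the 11 calls in both whole tissues, 4 held with the TNF- make-up: Csf2, Csf2rb2 and Csf3 in synovium and Csf1r in lung. For Csf2 the mix within lymphocytes still differed. Innate lymphoid cells, which held most of it, were 143 of 336 TNF- and 18 of 183 TNF+ synovial lymphocytes, and their Csf2 levels, given below, had overlapping intervals. With the TNF- make-up Il34 was past 2-fold higher in both tissues (1.57 and 1.37) and Csf3r past 2-fold lower in both (-1.45 and -1.63). The Csf3r values include the mix of myeloid classes. Neutrophils were 304 of 1057 TNF- and 179 of 4901 TNF+ lung myeloid cells. Csf3r was at 2926 and 1868 CPM in lung neutrophils, and at 91.0 and 111 CPM in lung macrophages or monocytes.

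**Figure D1:**
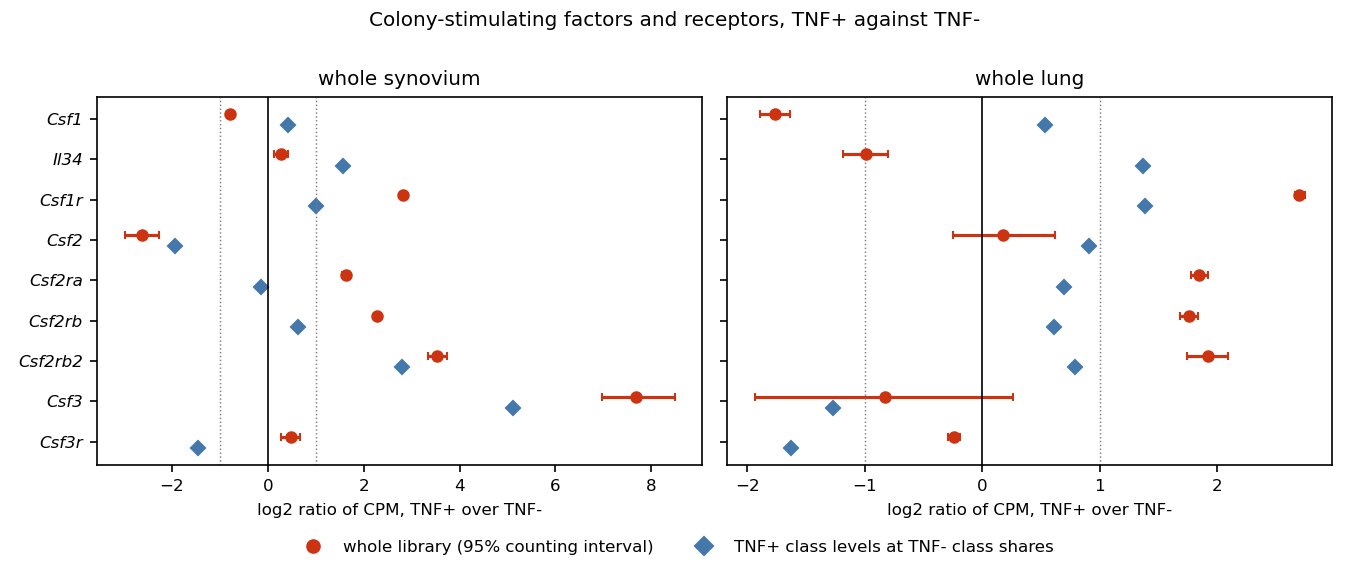
Log2 ratio of CPM in TNF+ over TNF- (horizontal axis) for the 9 genes in whole synovium (left) and whole lung (right). Red circles are whole libraries with 95% counting intervals. Blue diamonds are TNF+ levels of broad lineages (called classes in the legend) at TNF- lineage shares, and dotted lines mark 2-fold. Csf3 in synovium lies at 7.68, and the diamonds of Csf2ra and Csf2rb lie nearer to 0 than the circles in both tissues.

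The receptors were counted mostly in myeloid cells, and the main lineage of the factors differed between genes and libraries. Between 86.9% and 99.5% of the UMIs of each receptor gene lay in myeloid cells in all libraries, except for Csf2rb2 in TNF+ synovium, where the share was 73.9%. Il34 lay mostly in stromal or epithelial cells, and so did Csf1 in synovium. In lung Csf1 lay mostly in endothelium in TNF-, and in TNF+ 39.8% of its UMIs were in myeloid cells and 25.1% in lymphocytes. Most Csf2 was in lymphocytes in 3 of 4 libraries. Csf3 reached at most 17 UMIs in 3 of the 4 libraries, too few to give a place. In TNF+ synovium epithelium held 52.9% of its UMIs and myeloid cells 33.5%.

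**Figure D2:**
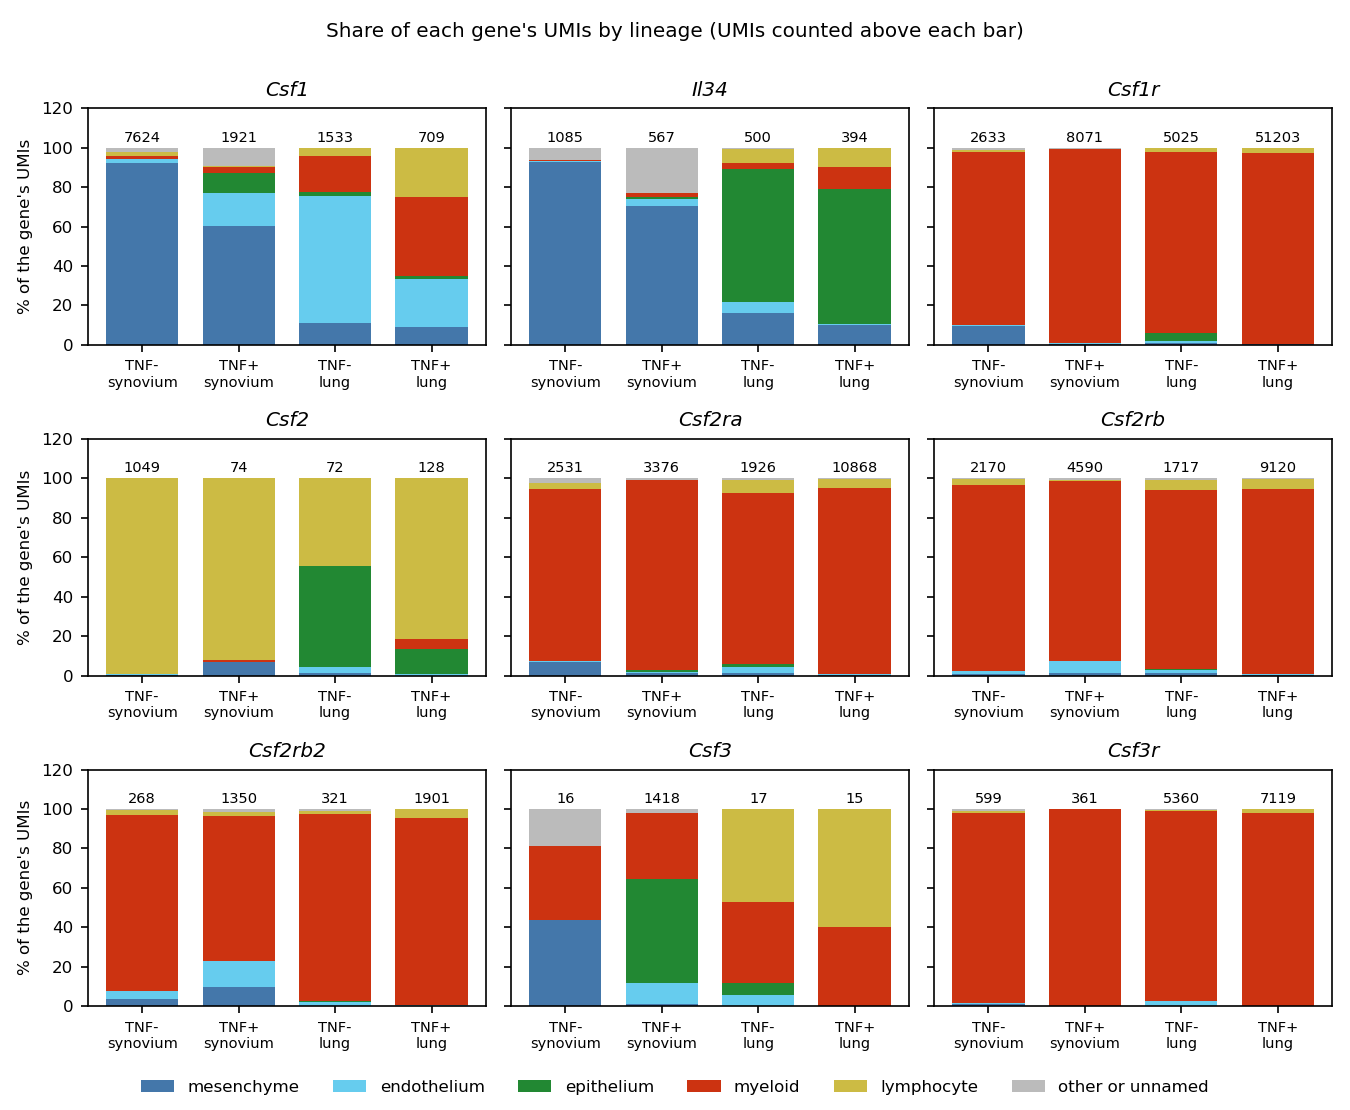
Share of each gene's UMIs (vertical axis, percent) counted in each lineage (colours) in the 4 libraries, with the number of UMIs above each bar. The receptors are counted mostly in myeloid cells, least so for Csf2rb2 in TNF+ synovium (73.9%), while the main lineage of the factors differs between tissues.

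Csf1 encodes the main growth factor of macrophages. In TNF- synovium, fibroblasts held 6727 of its 7624 UMIs (88.2%) at 146 CPM (interval 143 to 150). Neutrophils were higher, at 249 CPM (187 to 324) in 27 cells. Innate lymphoid cells (69.9 CPM), tendon cells (67.0) and endothelium (47.1) followed, of which the first 2 did not differ beyond counting error. Every other named class with at least 50 cells was at 20.9 CPM (Schwann cells) or less, and the 330 cells of unnamed clusters were at 64.5 CPM.

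In TNF+ synovium the largest holder of Csf1 was a cluster with both fibroblast and tendon markers that was led by Mmp13, Saa3 and Cxcl5 (cluster 12). It held 657 of 1921 UMIs (34.2%) at 174 CPM (161 to 188) in 230 cells, against 3 cells in TNF-. The remaining fibroblasts were fewer but higher, at 298 CPM (268 to 331) in 148 cells. Endothelium held 17.1% of the UMIs and epithelium 9.84%. Different clusters therefore carried the stromal Csf1 in the 2 genotypes, clusters 0, 1 and 4 in TNF- and cluster 12 in TNF+.

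Within clusters present in both libraries, Csf1 was higher in TNF+ in most. Fibroblast cluster 0 was at 114 and 355 CPM (log2 ratio 1.64, interval 1.36 to 1.90; 1322 and 50 cells), and fibroblast cluster 1 at 146 and 313 CPM (1.10). Tendon cells were at 67.0 and 143 CPM (1.10). Fibroblast cluster 4, led by Sv2c and Pi16, was at 197 and 132 CPM (-0.58, interval -1.25 to 0.00) with 21 TNF+ cells. As UMIs per cell, fibroblasts of both genotypes lay close together (log2 ratio 0.06 against 1.03 for CPM), so the difference depended on the scale, whereas tendon cells kept 1.08.

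Endothelial Csf1 in synovium was at 47.1 and 81.8 CPM (0.80; 1.60 as UMIs per cell), and higher in both larger clusters. Cluster 3 (led by Timp4, Aqp1 and Gpihbp1) was at 51.4 and 84.2 CPM, and cluster 14 (led by Gkn3, Gja5 and Sema3g) at 26.9 and 90.2 CPM (1.74, interval 0.91 to 2.70). Neutrophils were level, at 249 and 243 CPM in 27 and 23 cells. Over all mesenchyme the log2 ratio was 0.35, below the call, and 0.33 without cluster 12.

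In the lung, endothelium was the main holder of Csf1 in TNF-, with 982 of 1533 UMIs (64.1%) at 70.3 CPM (66 to 74.9). Mast cells or basophils had the highest level in both libraries, 844 CPM (698 to 1011) in 21 TNF- cells and 1124 CPM (899 to 1389) in 9 TNF+ cells. These few cells held 7.63% and 12.1% of all Csf1 UMIs of the lung. Neutrophils came next in TNF- at 92.0 CPM, and were at 72.8 CPM in TNF+ (-0.34, interval -0.74 to 0.05).

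Endothelial Csf1 in lung was at 113 CPM in TNF+ (0.69) but the clusters behind the 2 values differed. Clusters 1, 14 and 17 held the TNF- cells, and clusters 16 and 30 the TNF+ cells, with a median of 5626 UMIs in TNF- and 782 in TNF+ endothelial cells. In TNF+ lung endothelium held 24.4% of Csf1 UMIs. Compared as UMIs per cell, both genotypes lay level, with a log2 ratio of 0.0041. Lung fibroblast cluster 24, of full depth, was at 53.1 and 171 CPM (1.69, interval 1.11 to 2.24; 147 and 22 cells), and innate lymphoid cells at 52.7 and 48.8 CPM.

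Il34 encodes the other ligand of CSF1R. In TNF- synovium its level was highest in mural cells, the pericytes and smooth muscle cells of vessel walls, at 256 CPM (234 to 280), where 46.1% of its 1085 UMIs lay. Fibroblasts held a further 39.8% at a low level of 9.40 CPM. Schwann cells (32.5 CPM) and tendon cells (17.6) lay between them and did not differ beyond counting error.

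In TNF+ synovium mural cells were still highest, at 134 CPM (111 to 160), and the cluster led by Mmp13, Saa3 and Cxcl5 followed at 63.6 CPM (55.8 to 72.1) with 42.3% of the 567 UMIs. The 2 mural clusters differed in opposite directions. Mural cluster 10 (led by Abcc9, Kcnj8 and Rgs5) was at 362 and 208 CPM (-0.80, interval -1.34 to -0.31), and mural cluster 17 (led by Myh11, Pln and Acta2) at 48.5 and 116 CPM (1.26, interval 0.66 to 1.90). An unnamed cluster that was led by Rgs5, Gabrr1 and Kcnj8 and held 65 TNF+ cells and 1 TNF- cell had 82 UMIs.

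Over all synovial mesenchyme Il34 was at 19.3 and 59.4 CPM (1.62, interval 1.45 to 1.79). Without cluster 12 the ratio was 1.49, and with equal weight for every cell it was 0.62, no longer past 2-fold.

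In the lung, most Il34 lay in epithelium, 67.4% of 500 UMIs in TNF- and 68.5% of 394 in TNF+. Nearly all of that was in cluster 18, alveolar epithelium led by Sftpb, Sftpc and Slc34a2, genes of type II cells. This cluster was at 122 CPM in 172 TNF- cells and 355 CPM in 59 TNF+ cells (1.54, interval 1.31 to 1.78), and the ratio per cell was 1.21. Epithelial cluster 20, led by the type I genes Ager and Rtkn2, had 1 UMI in each library. Mural cells followed at 86.7 and 131 CPM. Over all lung epithelium, 5.07% of TNF- and 1.70% of TNF+ cells, Il34 was at 95.3 and 276 CPM (1.54), and below 2-fold without a cell filter (0.88) or as UMIs per cell (0.87).

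**Figure D3:**
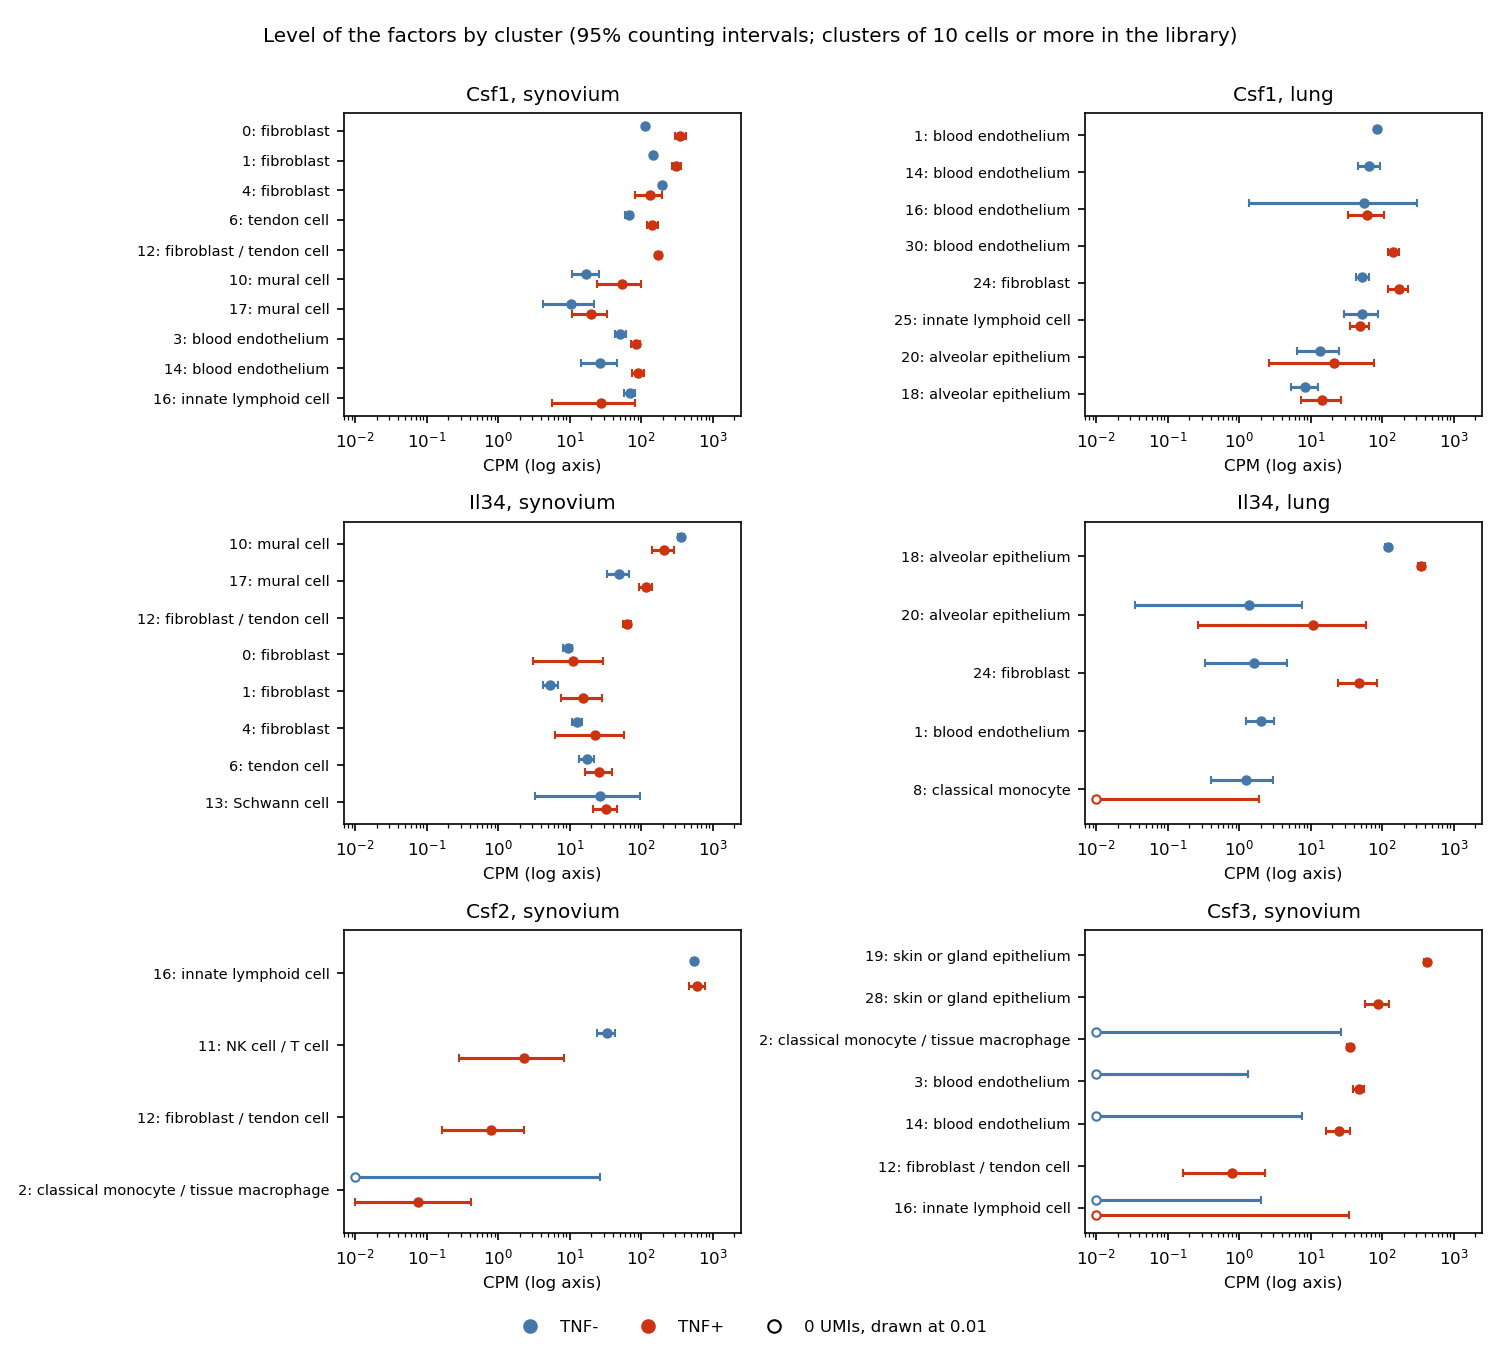
CPM (horizontal log axis, 95% counting intervals) of Csf1 and Il34 in clusters of synovium and lung, and of Csf2 and Csf3 in clusters of synovium; blue is TNF-, red TNF+, open circles mark 0 UMIs drawn at 0.01, and clusters under 10 cells in a library are not drawn. Csf2 in innate lymphoid cells lies at 547 and 613 CPM in the 2 genotypes, and Csf3 is at 0 UMIs in TNF- endothelium.

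Csf2 encodes GM-CSF. In synovium it was concentrated in cluster 16, innate lymphoid cells led by Il5, Gata3, Il13, Calca and Csf2 itself, genes of the type 2 kind. This cluster held 993 of 1049 UMIs (94.7%) in TNF- and 66 of 74 (89.2%) in TNF+. Its level was 547 CPM (513 to 582) in TNF- and 613 CPM (474 to 780) in TNF+, with overlapping intervals. As UMIs per cell the cluster had 6.94 in TNF- and 3.67 in TNF+, and it held 143 and 18 cells.

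A UMI of Csf2 was found in 58 of the 143 TNF- innate lymphoid cells (40.6% at a median depth of 11572 UMIs). Thinned to 1000 UMIs a cell, the share was 15.4% (9.90 to 22.4), against 1.54% in NK or T cells of the same library (3.82% unthinned, median depth 10310 UMIs). The counts were uneven between cells. In TNF- synovium 70 cells had any UMI, the highest had 100, and the top 10 cells held 57.4% of UMIs, and in TNF+ 10 cells held all 74. Intervals that treat UMIs as independent are too narrow for this gene.

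The NK or T cell cluster of synovium had 49 UMIs of Csf2 in TNF- and 2 in TNF+, 33.1 and 2.34 CPM (-3.82, interval -6.91 to -1.89), where 14.7% of all tested genes were past 2-fold. In TNF- those UMIs came from 5 of 131 cells. Over all synovial lymphocytes Csf2 was at 257 and 57.7 CPM (-2.15), and without cluster 16 at 21.8 and 1.87 CPM. In these lymphocytes 6 of 6 tested members were past 2-fold, 1 higher and 5 lower, against 21% of all tested genes (7.8% higher, 13.2% lower), and the TNF+ side of 5 of them rested on 1 to 23 UMIs.

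The lung held few Csf2 UMIs, 72 in TNF- and 128 in TNF+. In TNF- 37 of them (51.4%) were in alveolar epithelium at 10.5 CPM, and all 37 in cluster 18, where 14 were counted in TNF+. A T cell cluster led by Il23r, Il17a and Trdc (cluster 19) were at 32.7 and 18.8 CPM (-0.80, interval -1.66 to 0.10), and innate lymphoid cells (cluster 25) at 24.6 and 47.7 CPM (0.96, interval -0.20 to 2.35). The differences in these 2 lymphoid clusters stayed within counting error. Over all NK or innate lymphoid cells of the lung Csf2 was at 4.57 and 22.0 CPM (2.27, interval 1.23 to 3.48, from 9 and 48 UMIs), and over all lung lymphocytes at 1.48 and 3.09 CPM (1.06), below 2-fold without a cell filter (0.99) and with the stricter one (0.96).

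Csf3 encodes G-CSF, a factor that is silent in most resting cells. In TNF- synovium its 16 UMIs were scattered, 6 in dendritic cells and 6 in fibroblasts. In TNF+ synovium 173 of 3152 cells had a UMI. Epithelium held 750 of 1418 UMIs (52.9%) at 363 CPM (338 to 390), macrophages or monocytes 472 (33.3%) at 31.0 CPM and endothelium 154 (10.9%) at 38.3 CPM. The stromal cluster led by Mmp13 had 3 UMIs of Csf3, fibroblasts had 1, and unnamed clusters had 25.

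The epithelial cells were 180 in TNF+ and 3 in TNF- synovium, named skin or gland epithelium from their markers. Cluster 19 was led by Cldn4, Krt18, Krt8 and Epcam, and cluster 28 by Krt14, Krt17 and Krt5. With 3 cells, TNF- gives no level to compare. Csf3 was found in 22.2% of the TNF+ epithelial cells (11.2% when thinned, interval 7 to 16.8, median depth 9760 UMIs), against 0.775% of NK or T cells of the library (0 of 127 when thinned, which allows up to 2.36%, median depth 6188 UMIs). Where in the sampled tissue these epithelial cells came from was not tested. Without epithelium, Csf3 in whole synovium was at 0.21 and 21.6 CPM (6.68).

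Macrophage and endothelial Csf3 did not rest on those cells. All but 2 of the 472 macrophage or monocyte UMIs were in cluster 2, with classical monocyte and tissue macrophage markers and led by Trem2, Cxcl3, Cxcl2 and Spp1. It held 871 TNF+ cells and 13 TNF- cells, and no TNF- macrophage or monocyte had a UMI. Synovial endothelium, with 647 TNF- and 447 TNF+ cells, had 0 UMIs in TNF- and 154 in TNF+. With the 0 set to a floor of 3 UMIs, TNF+ was 42.5-fold higher (log2 ratio 5.41). The counting interval of the ratio itself reached down to 5.10. Both endothelial clusters contributed, cluster 3 with 125 UMIs (47.0 CPM) and cluster 14 with 28 (24.8 CPM). Csf3 was uneven between cells too: the highest cell had 112 UMIs and the top 10 held 45.2%.

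In synovial endothelium 5 of the 7 tested members were past 2-fold, all higher in TNF+, where 17.3% of all tested genes were past 2-fold and 7.07% in that direction. The members were Csf3, Csf2rb2, Csf2rb, Il34 and Csf1r, and the last 2 had 22 and 26 UMIs in TNF+ and lost the call with equal weight per cell.

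Csf1r, the tyrosine kinase receptor of CSF1 and IL-34, was counted in macrophages or monocytes for 71.2% (TNF- synovium) to 97% (TNF+ synovium) of its UMIs, and for 87.4% and 94.5% in lung. Levels in that class were 644 CPM (615 to 674) in TNF- and 515 CPM (504 to 527) in TNF+ synovium, a log2 ratio of -0.32. Dendritic cells were at 62.3 and 74.2 CPM of Csf1r, and the few neutrophils at 54.2 CPM (28 to 94.7) and 117 CPM (62.3 to 200.2), which overlapped them. Over all synovial myeloid cells Csf1r was at 231 and 479 CPM (1.05), where 5 of 7 tested members were past 2-fold, 3 higher and 2 lower, against 29.3% of all tested genes (9.34% higher, 19.9% lower). The Csf1r call was lost with equal weight per cell (0.785), as UMIs per cell (0.807), without cluster 2 (0.822) and with doublets removed (0.996). Dendritic cells were 370 of 622 TNF- myeloid cells and 82 of 1217 TNF+ ones.

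Within synovial clusters Csf1r differed little. Nonclassical monocytes were at 757 and 687 CPM (-0.14), tissue macrophages at 670 and 721 CPM (0.10) and classical monocytes at 520 and 379 CPM (-0.46, interval -0.75 to -0.17). Cluster 2, which made up most TNF+ macrophages, was at 497 CPM. Without cluster 2 the whole synovium ratio of Csf1r was 1.14, down from 2.82, and Csf2ra went from 1.62 to 0.22.

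In lung macrophages or monocytes Csf1r was at 633 CPM (615 to 652) in TNF- and 1164 CPM (1154 to 1175) in TNF+ (0.88). Cluster 0, nonclassical monocytes led by Cd300e and Treml4, held 2798 TNF+ cells and 76 TNF- cells and was at 941 and 1247 CPM (0.41, interval 0.27 to 0.54). Classical monocytes (727 and 856 CPM, 0.24) and tissue macrophages (1007 and 1160 CPM, 0.20) differed by less. Alveolar macrophages of full depth (cluster 22) were at 108 and 280 CPM (1.37, interval 1.09 to 1.66), dendritic cells at 66.1 and 166 CPM (1.33) and neutrophils at 94.6 and 330 CPM (1.80). Across lung myeloid cells 3 of 7 tested members were past 2-fold, 1 higher and 2 lower, against 21% of all tested genes (4.34% higher, 16.6% lower).

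Outside myeloid cells of the lung, Csf1r was higher in TNF+ in every class with at least 50 cells in both libraries except epithelium. T cells stood at 3.77 and 45.8 CPM in TNF- and TNF+ lung, and B or plasma cells at 5.52 and 41.3 CPM. Those values were 0.596% and 3.94% of the macrophage or monocyte level for T cells, and 0.872% and 3.55% for B or plasma cells. Endothelium stood at 0.735% and 4.22%, and fibroblasts (16.9 and 263 CPM) at 2.66% and 22.6%. Epithelium went the other way, at 53.2 and 32.8 CPM. The share of T cells with a UMI was 1.64% and 17.9% (0.103% and 2.90% when thinned), at median depths of 9265 and 9247 UMIs.

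All 54 markers of macrophages and monocytes had UMIs in lung lymphocytes of both libraries, with a summed level of 1918 CPM in TNF- and 3419 CPM in TNF+. These sums were 8.78% and 10.7% of the level in myeloid cells, against 1.03% and 4.08% for Csf1r. The other receptor genes were also low and higher in TNF+ lymphocytes. In lung lymphocytes 5 of 8 tested members were past 2-fold, all higher, against 16.2% of all tested genes (6.19% higher). In lung mesenchyme 5 of 5 were past 2-fold and higher (19.5% of all tested genes, 10% higher). Median depth there was 6462 UMIs in TNF- and 796 in TNF+ cells. Compared as UMIs per cell, mesenchymal Csf1 had a log2 ratio of -0.082 and Il34 of 0.35. In lung endothelium 4 of 6 were past 2-fold, 3 higher and 1 lower (19.1%, with 10.3% higher and 8.8% lower). In epithelium it was 2 of 6, both higher (18.8%, 11.7% higher). In platelets or megakaryocytes it was 2 of 2 (18.4%), Csf1r higher and Csf3r lower. Csf3r was lower in TNF+ endothelium (124 and 5 UMIs, 8.88 and 3.28 CPM) and in platelets or megakaryocytes (17 and 3 UMIs, log2 ratio -1.35, interval -3.76 to 0.44). The share of myeloid cells in the lung library was higher in TNF+, and the part of free RNA in these counts was not tested.

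Lung epithelial cluster 20, led by Ager and Rtkn2, was lower in TNF+ for Csf1r. It was at 244 CPM in TNF- (179 UMIs in 172 cells) and 96.1 CPM in the 34 TNF+ cells (-1.35, interval -2.50 to -0.39). Cluster 20 was shallow, with a median of 1116 UMIs a cell, so its TNF+ level rests on few UMIs. Cluster 18, led by Sftpb, was at 3.27 and 16 CPM.

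**Figure D4:**
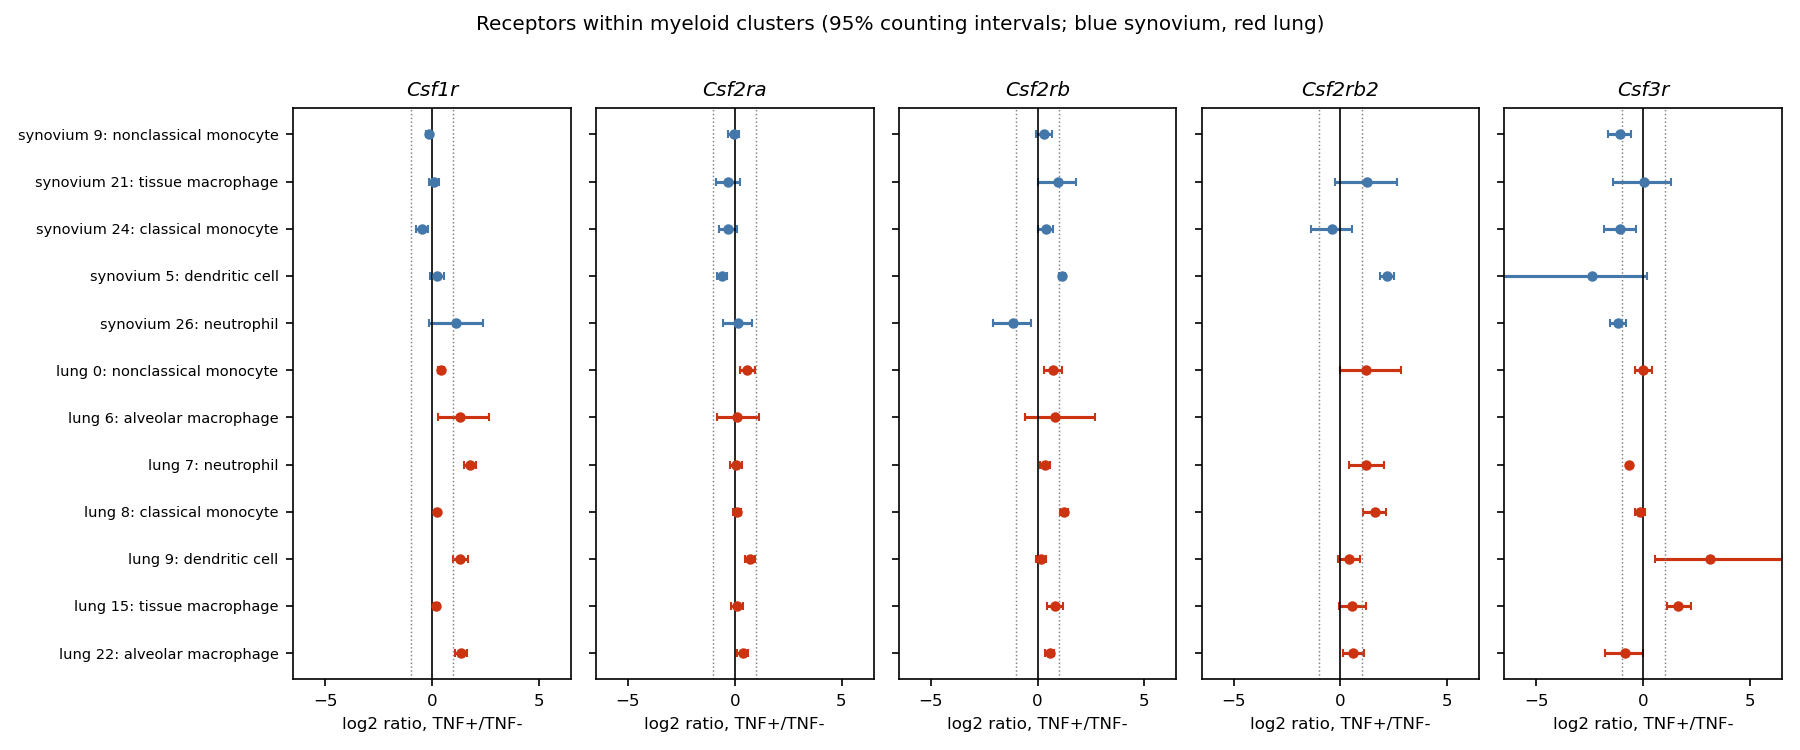
Log2 ratio of CPM in TNF+ over TNF- (horizontal axis, 95% counting intervals) of the 5 receptor genes within myeloid clusters of synovium (blue) and lung (red), drawn for clusters of at least 20 cells in each library where both together held at least 20 UMIs; dotted lines mark 2-fold. Csf1r and Csf2ra lie within 2-fold in most clusters, Csf3r lies below 0 in synovial monocytes and in neutrophils of both tissues, and Csf2rb and Csf2rb2 lie above 0 in most; 2 intervals of Csf3r in dendritic cells run past the axis.

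The promoters of 3 receptor genes that were counted mostly in myeloid cells are shown for the letters they share. RefSeq promoter windows, from 250 bases before to 50 after the start on GRCm38.p6, were at hand for 5 of the 9 genes (Csf1, Csf2, Csf2ra, Csf2rb2 and Csf3r). They were searched on both strands for GAGGAA, which is read as its reverse complement on the other strand, the core bound by PU.1, the ETS factor of myeloid cells that is encoded by Spi1. The motif is printed in capitals.
Csf2ra, chr19:61228369-61228668, minus strand: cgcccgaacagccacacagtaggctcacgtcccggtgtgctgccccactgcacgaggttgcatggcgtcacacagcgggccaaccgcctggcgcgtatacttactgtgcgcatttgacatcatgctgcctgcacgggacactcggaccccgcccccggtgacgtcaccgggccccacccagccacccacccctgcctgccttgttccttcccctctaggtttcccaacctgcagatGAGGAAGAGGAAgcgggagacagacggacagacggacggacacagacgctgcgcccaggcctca
Csf2rb2, chr15:78305672-78305971, minus strand: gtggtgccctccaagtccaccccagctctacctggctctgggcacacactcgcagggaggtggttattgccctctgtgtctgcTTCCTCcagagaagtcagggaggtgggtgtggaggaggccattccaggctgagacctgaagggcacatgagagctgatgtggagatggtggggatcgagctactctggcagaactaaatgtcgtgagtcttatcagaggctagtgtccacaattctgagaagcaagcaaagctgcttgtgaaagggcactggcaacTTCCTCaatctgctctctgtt
Csf3r, chr4:126024409-126024708, plus strand: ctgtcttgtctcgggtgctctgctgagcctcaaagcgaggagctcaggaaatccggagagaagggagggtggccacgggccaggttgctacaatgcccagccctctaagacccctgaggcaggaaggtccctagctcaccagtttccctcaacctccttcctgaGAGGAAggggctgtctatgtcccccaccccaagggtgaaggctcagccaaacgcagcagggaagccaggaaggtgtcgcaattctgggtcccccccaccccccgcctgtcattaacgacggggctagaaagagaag
Csf2ra held 2 copies, the first base of each at -14 and -8 from the start, Csf2rb2 held 2 on the other strand and Csf3r held 1 at -86. The windows of Csf1 and Csf2 held none. Of 32851 promoter windows of the same length, 28.3% held the motif, so these matches are a description and not sites of binding.

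Csf2ra encodes the chain that binds GM-CSF. Its level was alike in several myeloid classes. In TNF- synovium neutrophils were at 262 CPM, dendritic cells at 223 and macrophages or monocytes at 209, and adjacent classes of this order had overlapping intervals. Dendritic cells held 60.9% of TNF- UMIs, and macrophages or monocytes 89.9% of TNF+ UMIs. Dendritic cells were at 149 CPM in TNF+ (-0.59, interval -0.81 to -0.37) and macrophages or monocytes at 200 CPM (-0.07). In lung the class levels were 175 and 218 CPM in macrophages or monocytes, 173 and 181 in neutrophils and 133 and 231 in dendritic cells (0.80). No myeloid cluster with at least 20 UMIs and at least 20 cells in each library was past 2-fold for Csf2ra in either tissue.

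Csf2rb encodes the shared beta chain. Synovial dendritic cells stood at 236 and 520 CPM (1.14, interval 1.01 to 1.27), where 23.5% of all tested genes were past 2-fold. Macrophages or monocytes were at 124 and 232 CPM (0.90). The neutrophils of synovium were at 280 and 126 CPM (-1.15, interval -2.10 to -0.30) in 27 and 23 cells. The alpha and beta chains thus differed in opposite directions in synovial dendritic cells. A UMI of both chains was found in 261 of 370 TNF- dendritic cells, where 334 had Csf2ra and 284 had Csf2rb.

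In lung, classical monocytes were at 93.4 and 220 CPM of Csf2rb (1.24, interval 1.04 to 1.44), tissue macrophages at 89.5 and 157 CPM (0.81), alveolar macrophages of cluster 22 at 253 and 375 CPM (0.57) and dendritic cells at 171 and 191 CPM (0.16). The shallow alveolar macrophage cluster 6, with most of the TNF+ alveolar macrophages, had 4 UMIs of Csf2rb in TNF- and 190 in TNF+ (80.4 and 140 CPM). Mast cells or basophils had the highest level of the lung in both libraries, 866 CPM in 21 cells and 431 CPM in 9 cells.

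Synovial endothelium had 26 UMIs of Csf2rb in TNF- and 269 in TNF+, 7.80 and 66.9 CPM (3.10, interval 2.52 to 3.74). Cluster 3 was at 6.93 and 84.9 CPM and cluster 14 at 14.5 and 38.0 CPM. In the same cells Csf1r was at 3.00 and 6.47 CPM, 0.466% and 1.26% of the macrophage or monocyte level, against 6.28% and 28.9% for Csf2rb and 15.3% and 78.0% for Csf2rb2. The summed level of the 54 macrophage and monocyte markers in this endothelium was 68.3% of that in myeloid cells in TNF- and 39.6% in TNF+. This sum does not measure macrophage RNA, because the markers are not all particular to macrophages. Lyve1 is also in the endothelial marker list, and the same sum reached 89.5% of the myeloid level in TNF- lung epithelium. The part of macrophage RNA in these endothelial counts was not tested.

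Csf2rb2 was low in TNF- synovium, at 25 CPM in dendritic cells, 21.6 in macrophages or monocytes and 3.30 in endothelium. In TNF+ it was at 115 CPM in dendritic cells (2.20, interval 1.88 to 2.53), 55.8 in macrophages or monocytes (1.37) and 43.5 in endothelium (3.72, interval 2.85 to 4.75). The macrophage or monocyte values come from different clusters: 819 of the 849 TNF+ UMIs lay in cluster 2 (871 TNF+ and 13 TNF- cells). Nonclassical monocytes of synovium were at 7.24 and 6.14 CPM of Csf2rb2, classical monocytes at 50.9 and 39.0 CPM and tissue macrophages at 11.7 and 27.3 CPM, all with overlapping intervals. Endothelial cells with a UMI were 1.08% in TNF- and 18.3% in TNF+ (0 of 632, which allows up to 0.475%, and 2.47% when thinned). NK or T cells had a UMI in 3.05% and 0% of cells.

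Mesenchyme of synovium had 10 UMIs of Csf2rb2 in TNF- and 131 in TNF+, 0.19 and 19.6 CPM (6.67, interval 5.75 to 7.76). Cluster 12 held 116 of the 131, and without it the ratio was 4.74 from 15 UMIs. In synovial mesenchyme 3 of 6 tested members were past 2-fold, all of them higher (Csf2rb2, Csf2rb and Il34), against 30.7% of all tested genes and 9.34% in that direction. The 18 innate lymphoid cells of TNF+ had 23 UMIs of Csf2rb2 and 5 of Csf2rb, and the 143 of TNF- had 2 and 3.

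The split between the beta chains differed between cell types. Csf2rb2 was 10.4% of the UMIs of both chains in TNF- synovial myeloid cells (interval 9.21 to 11.8) and 19.2% in TNF+ (18.2 to 20.3), and 16.3% and 17.3% in the lung. The TNF+ synovial value rested on cluster 2 (20.3%) and dendritic cells. In the monocyte clusters that both libraries held, it was 16.9% and 10.8% (cluster 24) and 6.36% and 4.49% (cluster 9), with overlapping intervals. In TNF+ synovium the share was 39.4% in endothelium (34.8 to 44.1), 67.2% in mesenchyme (60.1 to 73.7) and 18.2% in dendritic cells. In lung mast cells or basophils it was 29.4% (22.7 to 36.9) and 41.1% (28.1 to 55.0), and in lung neutrophils 6.38% and 11%.

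The paralogs are alike enough for reads to be shared. Their longest coding transcripts, of 4900 and 4740 bases, were identical at 90.5% of 4687 aligned bases, and 18.4% of the 50-base stretches of Csf2rb also occurred in Csf2rb2. In the last 500 bases, where 3′ reads mostly fall, no 50-base stretch was shared. Reads farther upstream or in introns could still be split or dropped between them, so levels of either chain are uncertain to that extent.

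Csf3r, the receptor of G-CSF, was highest in neutrophils in all 4 libraries. Lung neutrophils stood at 2926 CPM (2841 to 3013) and 1868 CPM (1792 to 1946) in TNF- and TNF+ (-0.65, interval -0.72 to -0.57), and in synovial neutrophils at 1573 and 702 CPM (-1.16, interval -1.54 to -0.80) in 27 and 23 cells. It was found in 302 of 304 and 175 of 179 lung neutrophils. As UMIs per cell the lung ratio was -0.21.

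Macrophages or monocytes held Csf3r at lower levels but in more cells. In lung this class held 11.8% of its UMIs in TNF- and 65.0% in TNF+, at 91.0 and 111 CPM, and in synovium 33.7% and 77.6%, at 69.3 and 18.4 CPM. Nonclassical cluster 0 alone had 3284 of 7119 UMIs in TNF+, at a level equal to that of its 76 TNF- cells (111 and 112 CPM, log2 ratio 0.01, interval -0.38 to 0.42). Lung tissue macrophages were at 37.8 and 118 CPM (1.64, interval 1.10 to 2.23) and alveolar macrophages of cluster 22 at 30.5 and 16.8 CPM (-0.86). The shallow alveolar macrophage cluster 6 (26 TNF- and 889 TNF+ cells) was at 0 and 44.9 CPM of Csf3r.

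In synovium, Csf3r of nonclassical monocytes was at 83.8 and 39.1 CPM (-1.10, interval -1.63 to -0.58) and of classical monocytes at 117 and 55.7 CPM (-1.07, interval -1.85 to -0.36). Cluster 2 was at 15.2 CPM. Over all myeloid cells the ratio was -1.41 in synovium and -1.80 in lung, and -0.30 in synovium without cluster 2. The lung value includes the cell mix, as neutrophils were 304 of 1057 TNF- and 179 of 4901 TNF+ myeloid cells. Csf1r and Csf3r were found together in 309 of 640 TNF- and 2169 of 4413 TNF+ lung macrophages or monocytes, nearly all of the 317 and 2199 cells that had Csf3r.

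Of 43 other genes of these pathways, 41 were tested in whole synovium, where 11 were past 2-fold higher and 4 lower in TNF+, against 33.6% of all genes past 2-fold (11.8% higher, 21.9% lower). Their median log2 ratio was 0.08 and that of all genes -0.17. The highest were Sdc1, which encodes syndecan-1, a binding partner of IL-34 (8.28 and 117 CPM, 3.83), Il1a (1.61 and 18.2 CPM, 3.50), mouse Tnf (16.8 and 75.1 CPM, 2.16), Tyrobp (192 and 825 CPM, 2.11) and Spi1 (3813 and 6918 UMIs, 2.07). Tyrobp encodes an adaptor of myeloid receptors. The 4 lower genes were Gfi1 (42 and 3 UMIs, -2.60, interval -4.94 to -0.96), the growth factor Flt3l (16.9 and 3.24 CPM, -2.38), the feedback inhibitor Socs3 (603 and 207 CPM, -1.54) and Maf (-1.25).

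In whole lung 42 were tested, 10 were past 2-fold higher and 6 lower, against 31.3% of all genes past 2-fold (5.79% higher, 25.5% lower), with a median of 0.26 against -0.32. Among the highest were the transcription factor Cebpb (273 and 1244 CPM, 2.19), Il17a (0.82 and 3.25 CPM, 1.99), the kinase Fgr (172 and 618 CPM, 1.85) and Tnf (35.2 and 113 CPM, 1.69). Stem cell factor Kitl (225 and 24.2 CPM, -3.21), Ptprz1 (-3.13), Kit (115 and 15.8 CPM, -2.86), Socs2 (-1.66) and Il5 (-1.59, 23 and 12 UMIs) were lowest.

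In synovial mesenchyme 11 of 35 tested pathway genes were higher and 5 lower, against 30.7% of all genes past 2-fold (9.34% higher), with a median of -0.22 against -0.27. Sdc1 was at 8.72 and 71.7 CPM (3.04), and Tyrobp, Fgr and Ptprz1, at 1.04 to 12.5 CPM in TNF+, were also higher. Pparg (12.3 and 4.33 CPM), Flt3l, Lyn, Maf and Socs3 (741 and 346 CPM, -1.10) were lower.

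In synovial myeloid cells 4 of 36 were higher and 12 lower, against 29.3% of all genes past 2-fold (9.34% higher, 19.9% lower), with a median of -0.53 against -0.14. Sdc1 (5.27 and 195 CPM, 5.21), Il1a (121 and 594 UMIs, 1.57) and Cebpb (889 and 1876 CPM, 1.08) were among the higher. Cish, an inhibitor induced by STAT5, was at 44.3 and 4.58 CPM (-3.27) and Stat5a at 55.5 and 13.6 CPM (-2.03). Flt3 (55.5 and 8.68 CPM), Flt3l and Kitl were also lower, and all 4 genes of the other myeloid growth factors and receptors were past 2-fold lower. Flt3 marks dendritic cells, whose share of myeloid cells differed between the libraries.

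In lung myeloid cells 1 of 37 was higher, Sdc1 (2.89 and 28.3 CPM, 3.29), and 8 lower, against 21% of all genes past 2-fold (4.34% higher, 16.6% lower), with a median of -0.04 against -0.10. The feedback inhibitors Socs1 (28.9 and 5.69 CPM, -2.34), Cish (8.96 and 2.78 CPM, -1.69) and Socs2 (22.6 and 7.80 CPM) were past 2-fold lower, 3 of 4 in that group, as were Kitl and Gfi1.

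Across 45 combinations of class and library with at least 50 cells, the genes most like each member were given by the correlation of log2(CPM + 1). These profiles share libraries and depth, and the values are descriptions. The closest were Gm5150, Trem3 and Siglece for Csf3r (r 0.943, 0.915 and 0.893), Clec12a, Clec4a2 and Mpeg1 for Csf2ra (0.923, 0.911 and 0.910), Gm21188, Cd300c2 and Cd300a for Csf1r (0.919, 0.914 and 0.912) and Clec4a2, Mpeg1 and Spi1 for Csf2rb (0.908, 0.897 and 0.897). Csf2rb2 was closest to AA467197 (0.873), Slamf8 and Mefv. Among the factors, Il34 was closest to Daam2 (0.869), Arhgef17 and Slc4a3, Csf2 to Igsf5 (0.850), Ccl1 and Gm15511, Csf1 to Casp12 (0.799), Pcsk5 and Ntn1, and Csf3 to Cldn4 (0.765), Snorc and Prss22.

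Between members, Csf2ra and Csf2rb (0.856), Csf2rb and Csf2rb2 (0.856) and Csf1r and Csf2ra (0.853) were closest over the same profiles. No factor had a profile close to that of its own receptor: Csf1 and Csf1r were at -0.409, Il34 and Csf1r at -0.219, Csf2 and Csf2ra at -0.151 and Csf3 and Csf3r at -0.162.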

How the data were processed

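The files the authors deposited hold raw UMI counts for genes by cells in 4 libraries of 10x Genomics 3′ RNA-seq, made with Cell Ranger 7.0.1 on mm10 per the submitters' processing notes, and nothing was normalized. The members and lists were chosen with earlier results of these data known. Cells with 200 to 5000 genes and at most 20% mitochondrial UMIs were kept, 6998 of 8555 barcodes in TNF- lung, 9174 of 11243 in TNF+ lung, 6200 of 6899 in TNF- synovium and 3152 of 4246 in TNF+ synovium. Too high a mitochondrial share set aside 17.6% of TNF+ synovial barcodes, and 1.41% to 3.78% elsewhere.

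The 2 libraries of a tissue were clustered together (2000 variable genes, 30 principal components, 20 neighbours, Leiden resolution 0.8, leidenalg 0.10.2), which gave 30 synovial clusters, 4 of them unnamed, and 37 lung clusters. Names needed at least 5 markers at 2-fold or more. The 428 markers covered 27 types, and a tie gave a joint name. Names rebuilt in this way can differ from the study's. Doublets were removed only in an alternative, by the highest Scrublet scores (scanpy 1.11.5), 0.8% of cells per 1000. The automatic threshold called 0.412% to 1.23% of cells.

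For each library, class or cluster, UMIs were added up and divided by the UMIs of all genes to give CPM, with exact Poisson intervals. Shares carry Clopper-Pearson intervals and log2 ratios conditional binomial intervals (scipy 1.17.1), all at 95%. Intervals cover counting error only. Classes needed 50 cells in each library, and ratios against 0 used a floor of 3 UMIs. Shares of cells were also computed after thinning to 1000 UMIs. Gene positions came from GENCODE vM21, which held 32158 of the 32285 genes by identifier. The steps were tested on simulated data.

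All 9 members are named. Of the 43 pathway genes, the 5 highest and 5 lowest past 2-fold with at least 20 UMIs are named in each whole tissue, in synovial mesenchyme and in myeloid cells of both tissues. Some of the genes this rule names are not reported here. The 3 genes most like each member, among genes with at least 200 UMIs, and leading genes of clusters are named too.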

Additional observations from a re-analysis of the deposited data

Results flagged for a closer look

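Several genes differed in opposite directions in the 2 tissues, with 1 library for each genotype and tissue, and the difference between tissues was not tested in any of them. In lymphocytes, log2 ratios stood at -2.67 in synovium and 0.85 in lung for Csf1, -2.97 and 3.18 for Csf1r, -2.15 and 1.06 for Csf2, -1.56 and 1.42 for Csf2ra and -1.15 and 1.89 for Csf2rb. The TNF+ synovial side rested on 7 UMIs of Csf1, 1 of Csf1r (interval of the ratio -8.32 to -0.37), 68 of Csf2, 7 of Csf2ra and 8 of Csf2rb. Innate lymphoid cells were 143 of 336 TNF- and 18 of 183 TNF+ synovial lymphocytes. In myeloid cells Csf2ra was at -0.16 in synovium and 0.38 in lung. Over whole tissues Il34 was at 0.27 and -0.99, and Csf3r at 0.47 and -0.24.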

How the results depend on the processing

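No paired analysis was possible because each group was 1 library and no replicate numbers were shared. Rescaling by the median gene ratio kept 49 of 49 calls of members at 2-fold, the minimum of 5 UMIs 49 of 49, the minimum of 100 UMIs 36 of 36, resolution 1.5 38 of 38, the stricter cell filter 47 of 49, no cell filter 46 of 49, UMIs per cell 45 of 49, doublets removed 43 of 48, equal weight per cell 42 of 49, each library clustered by itself 34 of 37 and the TNF- make-up 4 of 11. The direction turned for Csf2ra in whole synovium (-0.13) and Csf1 in whole lung (0.53) with the TNF- make-up, for Csf2rb in synovial lymphocytes with equal weight per cell (1.28), for Csf1 in lung mesenchyme as UMIs per cell (-0.082), and for Csf3r in lung endothelium with doublets removed (0.71), each library by itself (0.33) and equal weight (1.43). The number of members past 2-fold was 5 without a cell filter and 6 at 5 UMIs in synovial mesenchyme, 3 with equal weight and 3 at 100 UMIs in synovial endothelium, 3 with doublets removed and 2 at 100 UMIs in synovial lymphocytes, where 6 of 6 (1 higher, 5 lower) were past 2-fold against 21% of all genes, 5 without a filter and 5 at 5 UMIs in lung myeloid cells, 3 as UMIs per cell and 3 at 100 UMIs in lung mesenchyme, 2 at 100 UMIs in lung endothelium, and 4 without a filter and 1 at 100 UMIs in lung epithelium. Alternatives chosen after seeing the data left out epithelium (6 of 6 calls kept), synovial cluster 2 (6 of 10), cluster 12 (3 of 3) and cluster 16 (5 of 5), lung cluster 0 (7 of 8) and lung cells under 1000 UMIs (19 of 19). Without cluster 2, 1 member was past 2-fold in synovial myeloid cells and Csf1 there turned to 0.20. The cause of these changes was not tested.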

Other observations

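Csf1 was high in the rarest myeloid class of the lung. The 21 TNF- and 9 TNF+ mast cells or basophils, led by Il6, Cpa3, Mcpt8 and Il4, had 117 and 86 UMIs of Csf1. The same cells had 120 and 33 UMIs of Csf2rb and 50 and 23 of Csf2rb2. They had 0 and 5 UMIs of Csf1r. In TNF- lung, Csf2rb was found in all 21 of these cells and Csf2rb2 in 17.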
